A study of Bos taurus with 9 samples.

Results

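MHC class I assembly and peptide loading were described here by 10 genes, BoLA, B2M, TAP1, TAP2, TAPBP, TAPBPL, NLRC5, MR1, ERAP1 and ERAP2, taken by symbol from the 17162 genes of the table, and all 10 were present. A class I molecule is put together in the endoplasmic reticulum from a heavy chain, the light chain B2M and a short peptide. The peptides come from the proteasome, are pumped into the endoplasmic reticulum by the transporter TAP1-TAP2, are trimmed there by ERAP1 and ERAP2, and are fitted into the heavy chain with the help of tapasin (TAPBP) or its relative TAPBPL. NLRC5 is the transactivator of class I genes, interferons are known inducers of the pathway, and MR1 is a class I-like molecule that presents vitamin B metabolites. In sheep, class I and B2M RNA of early pregnancy are known mainly from uterine stroma and glands rather than from the luminal epithelium.

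RNA was sequenced from BEND cells, wild-type primary cells of the bovine endometrium which the labels and the study call epithelial, in 9 libraries, 3 for each of 3 groups. CON cells were untreated, GA cells received 1 nM estradiol (E2) and 100 nM progesterone (P4) for 12 h, and GB cells received the same hormones for 12 h and then 100 ng/mL interferon tau (IFNT) for another 12 h. IFNT is the type I interferon by which the ruminant conceptus signals its presence to the mother. All cells shared a culture medium with serum and came from uteri of Holstein cows collected at an abattoir, and the study calls the 3 libraries of a group biological replicates. The number of animals behind them was not given in the sources used here, so that p-values measure only the spread between these libraries. The collection time of CON and GA cells is not stated either, so that IFNT and culture time cannot be told apart in the comparisons with GB, and both of these comparisons use the same 3 GB libraries. Hormones and culture time cannot be told apart in GA vs. CON. The study describes a change to fresh medium only for the treated groups, so its part in the comparisons with CON cannot be told apart either.

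The values were FPKM, in which fragments are divided by exon length and by the mapped reads of the library, so levels can be set side by side between genes. They summed to between 1395622 and 1442723 per library, with 14452 to 14893 genes above 0. Read counts were not analysed here. The epithelial label was checked against 8 markers, KRT18, KRT8, KRT19, KRT7, CDH1, CLDN4, CLDN3 and MUC1. In CON their summed FPKM lay between 0.75 and 1.77, in GA between 1.03 and 1.72 and in GB between 1.53 and 2.47, no single value passed 0.74, and 5 of the 8 were at 0 in at least 1 library. For the 8 stromal fibroblast markers the sum lay between 16642 and 17220 in CON, between 16824 and 17208 in GA and between 15041 and 15152 in GB. None of the 8 was a DEG as defined below, which cannot be set apart from the 2.94% and 1.07% of tested genes that rose and fell in GB vs. CON. By limma with Benjamini-Hochberg, 4 of the 8 had an adjusted p under 0.05 in GB vs. CON, all lower, against 33.5% of tested genes. In GB vs. GA 5 were lower at that level, and in GA vs. CON 2 were higher and 1 lower. The share of all tested genes at that level is not given here for GB vs. GA and GA vs. CON. These counts therefore cannot be read as shifts particular to the markers. The 6 endothelial markers summed to at most 3.44, and the 10 immune cell markers to 22.3 to 28.7, of which CD14 gave up to 23.3, with 5 of the 10 at 0 in at least 1 library. The study identified the cells as epithelial by staining for cytokeratin protein, which was not analysed here. At the RNA level the epithelial markers were near 0 in every library, and the cells are called BEND below without a cell type. In bulk RNA, a change in the number of cells that express a gene and a change in RNA per cell cannot be told apart, and the part of the marker sums in the results was not tested.

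Genes were called differentially expressed (DEGs) by limma on log2(FPKM + 0.5), with |log2FC| above 1 and the adjusted p of Benjamini and Hochberg under 0.05, over 12578 genes with a mean of at least 0.5 FPKM. All 10 class I assembly genes passed that filter. The 10 genes and the lists used below were chosen with earlier results of these data known. The shares of all tested genes set beside them are therefore given for scale only. In GB vs. CON all 10 rose as DEGs, against 2.94% of the tested genes (370) that rose and 1.07% that fell, and none of the 10 overlapped between the groups, against 22.2% of tested genes that were higher without overlap. In GB vs. GA all 10 rose again, against 2.66% (335) of tested genes that rose and 0.978% that fell, and 10 of 10 were higher without overlap, against 15.7%. In GA vs. CON none of the 10 was a DEG in limma, against 0.0716% (9) of tested genes, and 1 of them had an unadjusted p under 0.05. In GB vs. CON the log2FC of the 10 genes ran from 1.43 to 4.68 around a median of 1.98, where the median over all tested genes was -0.016. It ran from 1.42 to 4.76 with a median of 1.86 in GB vs. GA, beside -0.075 over all tested genes. In GA vs. CON it ran from -0.079 to 0.37 with a median of 0.039, beside 0.061 over all tested genes.

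**Figure D1:**
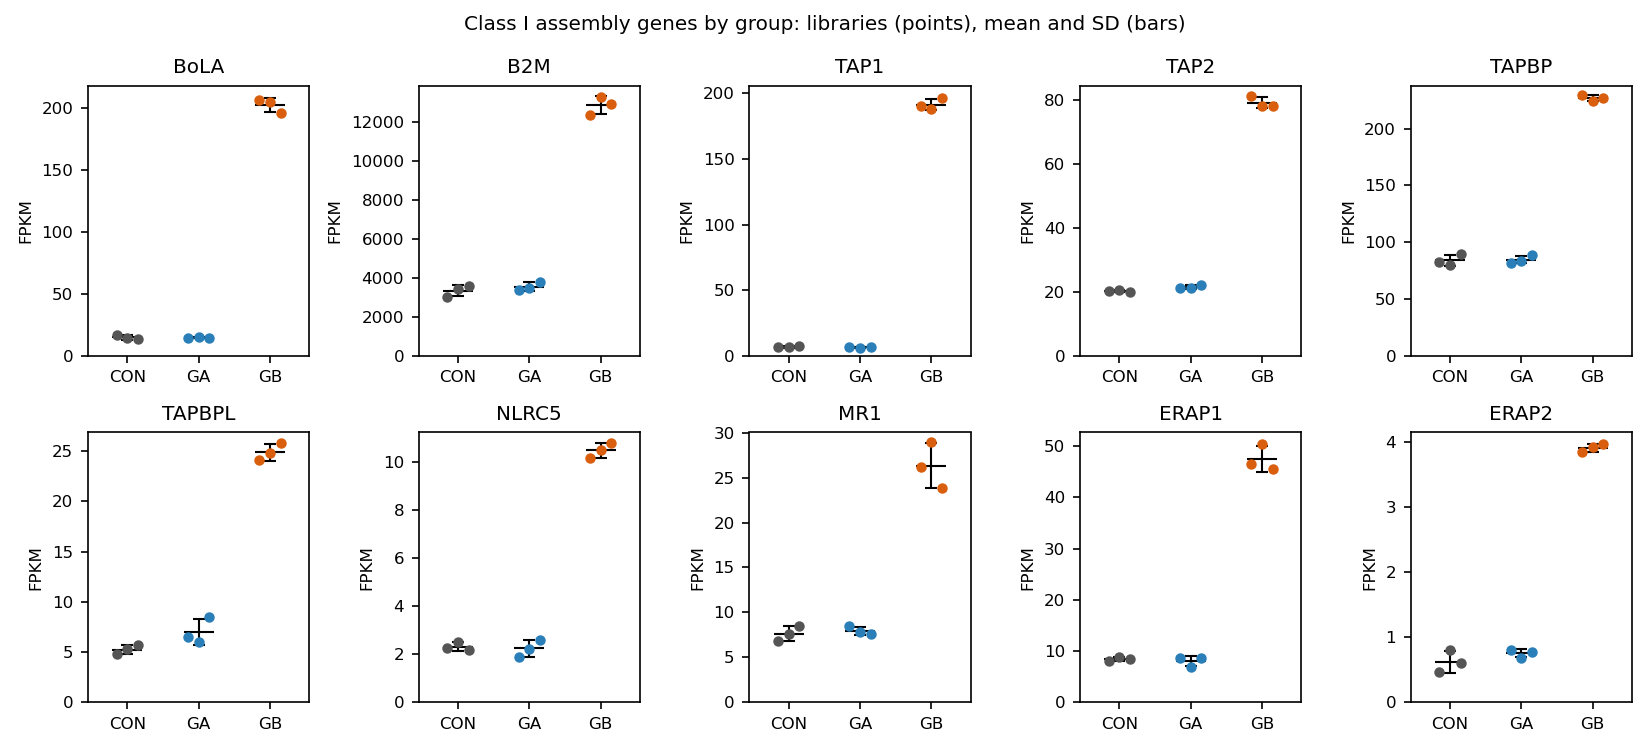
FPKM of each of the 10 class I assembly genes (vertical axes from 0, a scale for each gene) in the CON, GA and GB libraries, where points are libraries, long bars means and short bars the SD over 3 libraries. The GB points lie above all CON and GA points in every panel, from ERAP2 with a GB mean of 3.91 to B2M with a GB mean of 12851 FPKM.

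The molecule itself is represented by a heavy chain, BoLA, and the light chain, B2M. BoLA, listed in the table as MHC class I, A, read 17.1, 14.8 and 13.4 FPKM in the CON libraries, 14.7, 14.95 and 14.5 in GA, and 207, 204 and 196 in GB. The lowest GB library thus stood far above the highest of the other 6, and CON was the more scattered of the untreated and hormone-treated groups. The CON mean was 15.1 ± 1.90 (SD, n = 3) and the GB mean 202 ± 5.78, 13.4-fold higher with a log2FC of 3.71 (SE 0.080, 95% interval 3.53 to 3.89, limma with Benjamini-Hochberg adjusted p = 1.03e-09). Against GA the log2FC was 3.74, and BoLA ranked 77 among the 12578 genes ordered by rise in GB vs. CON.

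B2M, the light chain shared by all class I molecules, was by far the most abundant of the 10. It read 3015, 3425 and 3573 FPKM in CON, 3389, 3471 and 3800 in GA, and 12350.3, 13273 and 12931 in GB. CON and GA overlapped, and every GB library lay above both. B2M was 3.85-fold higher in GB than in CON (log2FC 1.95, SE 0.069, 95% interval 1.79 to 2.10, limma with Benjamini-Hochberg adjusted p = 3.68e-08) and 3.62-fold higher than in GA. Ordered by FPKM within a library, B2M stood at position 48 to 62 in CON, 41 to 53 in GA and 3 in each GB library. Its share of all FPKM went from 0.216 to 0.251% in CON to 0.885 to 0.930% in GB, and the 10 genes together held 0.944 to 0.987% of FPKM in GB, so that nearly all of this sum was B2M.

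The peptide transporter is a dimer of TAP1 and TAP2, and its chains moved by different amounts. TAP1 read 6.44, 6.81 and 7.79 FPKM in CON, 6.58, 6.27 and 6.95 in GA, and 191, 188 and 196 in GB. It had the largest rise of the 10 in both comparisons with GB, 27.3-fold against CON (log2FC 4.68, SE 0.074, 95% interval 4.51 to 4.85, limma with Benjamini-Hochberg adjusted p = 1.76e-10) and 29.0-fold against GA (log2FC 4.76). Among all tested genes it ranked 50 by rise in GB vs. CON. TAP2 read 20.5, 20.6 and 19.9 FPKM in CON, 21.1, 21.1 and 22.2 in GA, and 81.5, 78.3 and 78.4 in GB. Its GA libraries all lay slightly above its CON libraries, and its GB libraries far above both. The rise was 3.91-fold against CON (log2FC 1.94, SE 0.047, 95% interval 1.83 to 2.05) and 3.70-fold against GA. In CON and GA the TAP2 level was above that of TAP1 in every library, and in GB the order was turned.

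Tapasin holds the empty heavy chain next to the transporter, and TAPBPL works as a peptide editor apart from it. TAPBP read 82.9, 79.9 and 89.7 FPKM in CON, 82.2, 83.7 and 88.6 in GA, and 230, 224 and 227 in GB, so that CON and GA overlapped and GB stood apart. It had the smallest rise of the 10, 2.70-fold against CON (log2FC 1.43, SE 0.052, 95% interval 1.31 to 1.54) and 2.68-fold against GA. TAPBPL read 4.79, 5.27 and 5.72 FPKM in CON, 6.48, 6.05 and 8.47 in GA, and 24.1, 24.8 and 25.8 in GB. The 3 groups did not overlap, with GA between CON and GB. TAPBPL was 4.73-fold higher in GB than in CON (log2FC 2.14, SE 0.12) and 3.56-fold higher than in GA (log2FC 1.77).

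The aminopeptidases that trim peptides in the endoplasmic reticulum differed in level more than in response. ERAP1 read 8.14, 8.84 and 8.42 FPKM in CON, 8.70, 6.89 and 8.66 in GA, and 46.5, 50.5 and 45.6 in GB. GA overlapped CON, with its library 2 the lowest of all, and GB was 5.61-fold above CON (log2FC 2.42, SE 0.093, 95% interval 2.21 to 2.63). ERAP2, the lowest of the 10 genes in each group, read 0.46, 0.80 and 0.60 FPKM in CON, 0.80, 0.69 and 0.78 in GA, and 3.85, 3.92 and 3.97 in GB. Its CON libraries differed by a CV of 27.6%, and CON values this low lie near the pseudocount of 0.5, which lowers the fold change on the log2(FPKM + 0.5) scale. ERAP2 had a mean 6.31 times that of CON, with a log2FC of 1.99 (SE 0.16, 95% interval 1.63 to 2.34, limma with Benjamini-Hochberg adjusted p = 1.51e-05).

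NLRC5, the transactivator that enters the nucleus and acts on class I promoters, read 2.25, 2.52 and 2.16 FPKM in CON, 1.90, 2.24 and 2.60 in GA, and 10.2, 10.5 and 10.8 in GB. GA spread over the whole range of CON, while the GB libraries lay close together and above both. The mean was 4.54-fold higher in GB than in CON (log2FC 1.97, SE 0.12) and 4.66-fold higher than in GA (log2FC 2.01).

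MR1 was also a target of the study's qRT-PCR, and its primer pair is shown because it is the only designed sequence for any of the 10 genes in the sources used here. Each is written 5′ to 3′, with no base marked.
MR1 forward primer: agcgatgctcggactcactct
MR1 reverse primer: aaccctgagtgattgtagtgatgc
The primers are 21 and 24 bases long, and no qRT-PCR value was used. In the sequencing data MR1 read 6.78, 7.64 and 8.48 FPKM in CON, 8.49, 7.82 and 7.65 in GA, and 26.2, 28.9 and 23.9 in GB. CON and GA overlapped in part, with CON library 3 inside the GA range, and GB was the most scattered GB group of the 10 by CV (9.55%) and still lay apart. MR1 was 3.45-fold higher in GB than in CON (log2FC 1.72, SE 0.099) and 3.29-fold higher than in GA (log2FC 1.66). Over the 10 genes, the limma Benjamini-Hochberg adjusted p in the comparisons with GB ran from 1.62e-10 to 3.24e-05.

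**Figure D2:**
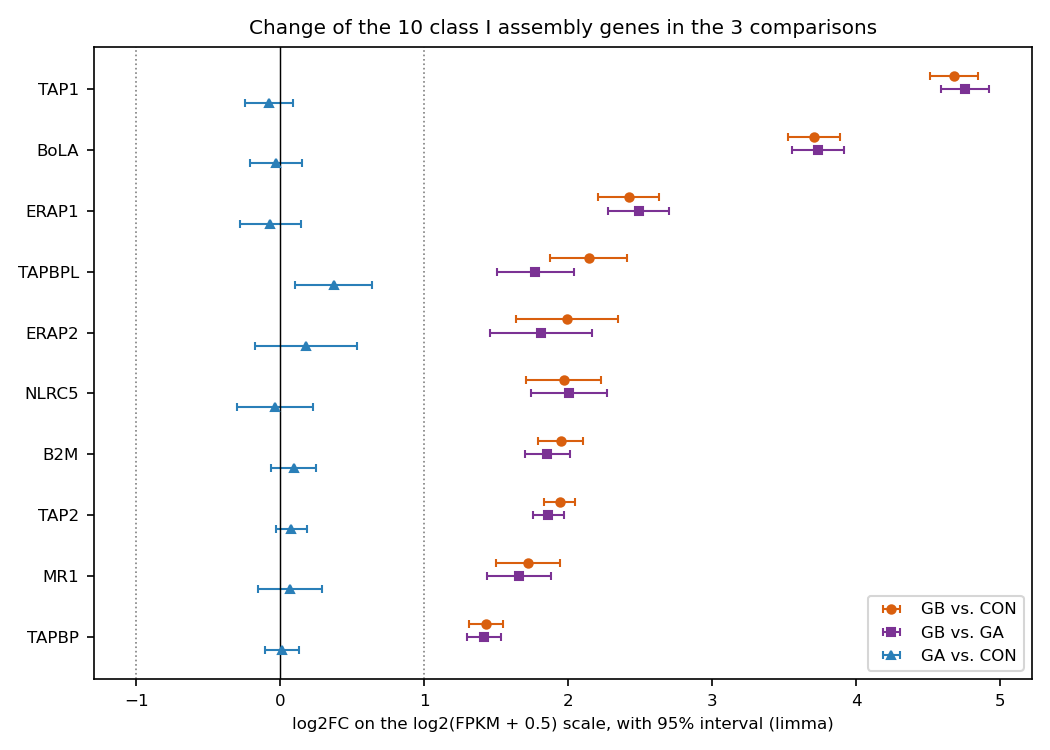
log2FC of the 10 class I assembly genes on the log2(FPKM + 0.5) scale (horizontal axis) in GB vs. CON, GB vs. GA and GA vs. CON, with 95% intervals from limma, ordered by GB vs. CON, and dotted lines at the DEG thresholds of -1 and 1. TAP1 (4.68) and BoLA (3.71) stand apart from the other 8 in GB vs. CON, and the GA vs. CON points lie near 0, with TAPBPL at 0.37.

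Between GA and CON the 10 genes differed little. In GA vs. CON, 6 of the 10 had a positive log2FC, and the adjusted p from limma with Benjamini-Hochberg ran from 0.156 to 0.918. TAPBPL had the largest value, 1.33-fold by mean FPKM with a log2FC of 0.37 (SE 0.12, 95% interval 0.10 to 0.64), an unadjusted p of 0.0121 and an adjusted p of 0.156, so it did not pass the test. Its GA group was also the most scattered GA group of the 10 (CV 18.4%), with library 3 highest. TAP2 and TAPBPL were the 2 genes whose GA libraries all lay above all CON libraries, against 18.6% of tested genes. The interval for BoLA was -0.21 to 0.15, for B2M -0.064 to 0.25 and for TAP1 -0.25 to 0.089. The widest was that of ERAP2, -0.18 to 0.53. In this fit a change past the DEG threshold of 1 lay outside the interval of each of the 10. Over the alternative settings the log2FC of ERAP2 ran from 0.071 to 0.64.

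Ordered by mean FPKM, CON ran from B2M (3338 ± 289) over TAPBP (84.2 ± 5.02), TAP2 (20.3 ± 0.337) and BoLA (15.1 ± 1.90) to ERAP1, MR1 and TAP1, then TAPBPL (5.26 ± 0.465), NLRC5 (2.31 ± 0.187) and ERAP2 (0.620 ± 0.171). Among these neighbours ERAP1 (8.47 ± 0.352) overlapped MR1 (7.63 ± 0.850), and MR1 overlapped TAP1 (7.01 ± 0.698), while the others were apart. In GA the same order held except that TAPBPL (7.00 ± 1.29) came to lie between MR1 (7.99 ± 0.444) and TAP1 (6.60 ± 0.340), and ERAP1 overlapped MR1, MR1 overlapped TAPBPL, and TAPBPL overlapped TAP1. In GB the order was B2M (12851 ± 466), TAPBP (227 ± 2.91), BoLA (202 ± 5.78), TAP1 (191 ± 4.26), TAP2 (79.4 ± 1.82), ERAP1 (47.5 ± 2.59), MR1 (26.3 ± 2.51), TAPBPL (24.9 ± 0.842), NLRC5 (10.5 ± 0.30) and ERAP2 (3.91 ± 0.0603). The overlapping neighbours in GB were BoLA with TAP1 and MR1 with TAPBPL. TAP1 thus went from below TAP2 and ERAP1 to a level near BoLA.

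Ratios of FPKM within a library show how the partners shifted against each other. Each was compared by a two-sided exact permutation test of the log2 ratio, which with 3 against 3 libraries cannot give a p under 0.1, and 12 such tests were made over 4 ratios and 3 comparisons. TAP1 to TAP2 was 0.315, 0.331 and 0.391 in the CON libraries, 0.312, 0.297 and 0.314 in GA, and 2.34, 2.40 and 2.50 in GB. GB did not overlap the other groups, and the log2 ratio was higher by 2.81 than in CON and by 2.97 than in GA (exact permutation p = 0.1 each, adjusted p = 0.133). GA also lay below CON without overlap, narrowly, with a difference in log2 ratio of -0.16 at the same exact p of 0.1. BoLA to B2M was 0.00458 ± 0.000996 in CON, 0.00415 ± 0.000294 in GA and 0.0158 ± 0.000852 in GB (SD, n = 3), a difference in log2 ratio of 1.80 for GB vs. CON and 1.93 for GB vs. GA at the same exact p of 0.1.

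The ratio of TAPBP to TAPBPL was 17.3, 15.2 and 15.7 in the CON libraries, 12.7, 13.8 and 10.5 in GA, and 9.54, 9.05 and 8.80 in GB. All 3 groups were apart, with differences in log2 ratio of -0.81 for GB vs. CON, -0.42 for GB vs. GA and -0.39 for GA vs. CON (exact permutation p = 0.1 each, adjusted p = 0.133). ERAP1 to ERAP2 was 14.3 ± 3.33 in CON, 10.7 ± 0.590 in GA and 12.1 ± 0.696 in GB, where the exact permutation p was 0.5 for GB vs. CON, 0.1 for GB vs. GA and 0.2 for GA vs. CON. The CON spread of this last ratio came with the low ERAP2 values given above.

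**Figure D3:**
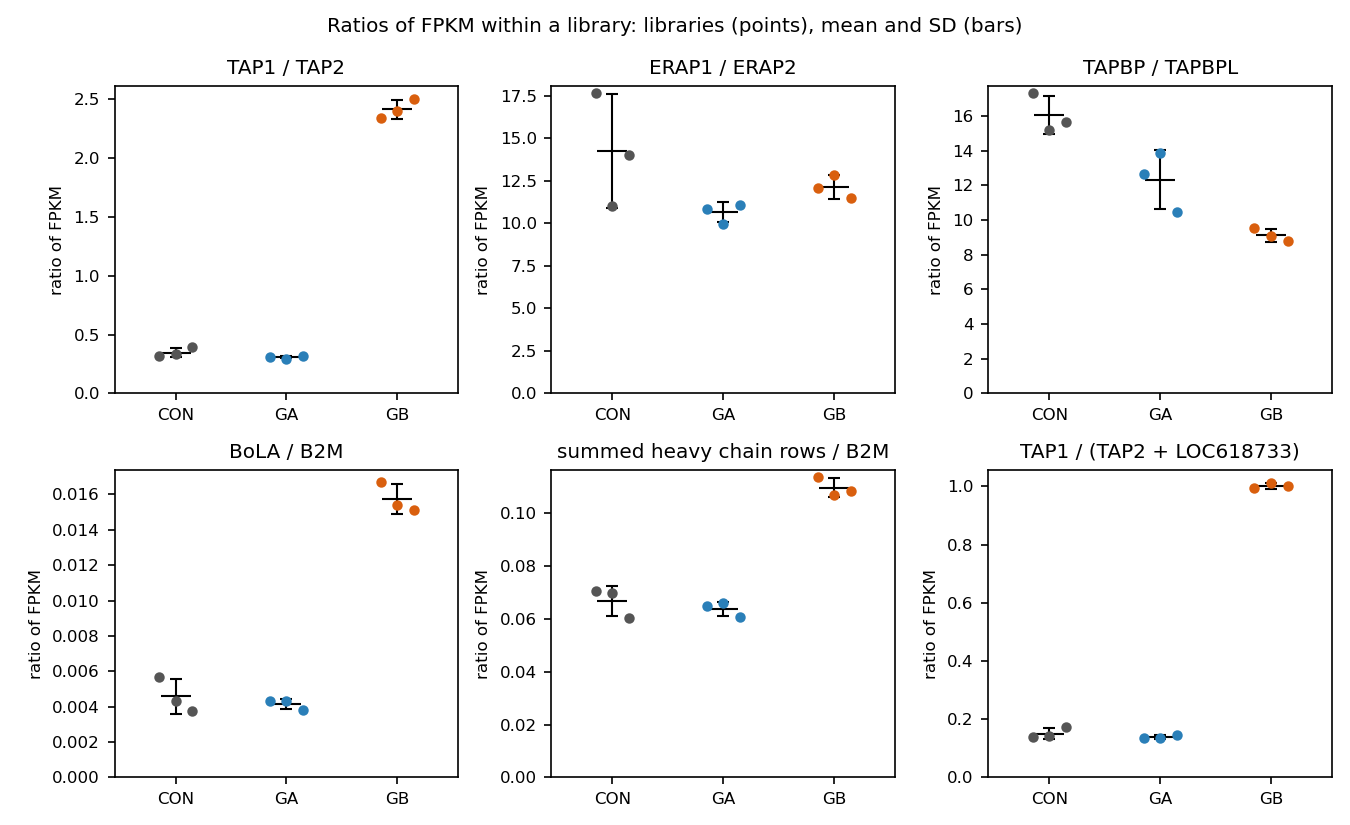
Ratios of FPKM within each library (vertical axes from 0) for TAP1 to TAP2, ERAP1 to ERAP2, TAPBP to TAPBPL, BoLA to B2M, the 8 summed heavy chain genes to B2M, and TAP1 to the sum of TAP2 and LOC618733, with points for libraries and bars for the mean and SD over 3. The GB points lie above the others in 4 panels, below them for TAPBP to TAPBPL, and between GA and CON means for ERAP1 to ERAP2.

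BoLA was not the main source of class I heavy chain RNA in the table. Another 7 entries are described there as class I heavy chains, and near-identical class I sequences share reads, so how the estimate divided reads among them is uncertain and their sum is the safer value. The entry BOLA, spelled in capitals and separate from BoLA, read 87.4, 103 and 89.4 FPKM in CON, 95.3, 101 and 102 in GA, and 653, 673 and 665 in GB, a log2FC of 2.83 (SE 0.062). JSP.1 read 51.8, 57.1 and 54.0 in CON, 49.4, 52.1 and 51.3 in GA, and 282, 283 and 279 in GB, with a log2FC of 2.37 (SE 0.046). In both, GB lay apart from the other groups, which overlapped.

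The non-classical gene BOLA-NC1 had 7.41, 5.74 and 7.40 FPKM in CON, 7.43, 7.20 and 6.73 in GA, and 101, 103 and 104 in GB, and its log2FC of 3.82 (SE 0.094) in GB vs. CON was close to that of BoLA. LOC512672 had a log2FC of 3.35 (SE 0.10), from 6.85 to 9.05 FPKM in CON to 82.5 to 92.9 in GB. LOC616942 had one of 2.18 (SE 0.20), from 2.22 to 3.53 in CON to 12.4 to 16.3 in GB. LOC509006 differed from these. It read 39.5, 46.2 and 40.3 FPKM in CON, 42.7, 43.0 and 45.6 in GA, and 52.9, 55.6 and 57.8 in GB, and its log2FC of 0.40 (SE 0.068, limma with Benjamini-Hochberg adjusted p = 0.00195) was short of the DEG threshold although GB did not overlap CON. LOC788634 was under the filter, with at most 0.08 FPKM in CON and GA and 0.67 to 0.96 in GB.

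Of the 6 other heavy chain genes tested, 5 were higher by limma in each comparison with GB (median log2FC of the 6, 2.60 and 2.62). Among all tested genes, 2.94% rose in GB against CON and 2.66% against GA. None of the 6 was a DEG in GA vs. CON, which cannot be set apart from the 0.0716% of all tested genes that were. LOC616942 lost its call in GB vs. CON with the GC content of the reads and the replicate number in the fit (limma with Benjamini-Hochberg adjusted p = 0.052). Summed over the 8 genes, heavy chain FPKM was 222 ± 14.1 in CON, 226 ± 6.29 in GA and 1407 ± 7.54 in GB (SD, n = 3), 6.33-fold and 6.22-fold higher in GB. The share of BoLA in this sum was 6.82% in CON and 14.4% in GB, that of BOLA 41.9% and 47.2%, and that of JSP.1 24.4% and 20.0%. The share of LOC509006 went from 18.9% to 3.94%. The ratio of the sum to B2M, computed after seeing the data, was 0.0668 ± 0.00561 in CON, 0.0638 ± 0.00266 in GA and 0.110 ± 0.00356 in GB. The log2 ratio was 0.72 higher in GB than in CON (exact permutation p = 0.1, adjusted p over 6 tests 0.15), a smaller difference than the 1.80 of BoLA alone.

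**Figure D4:**
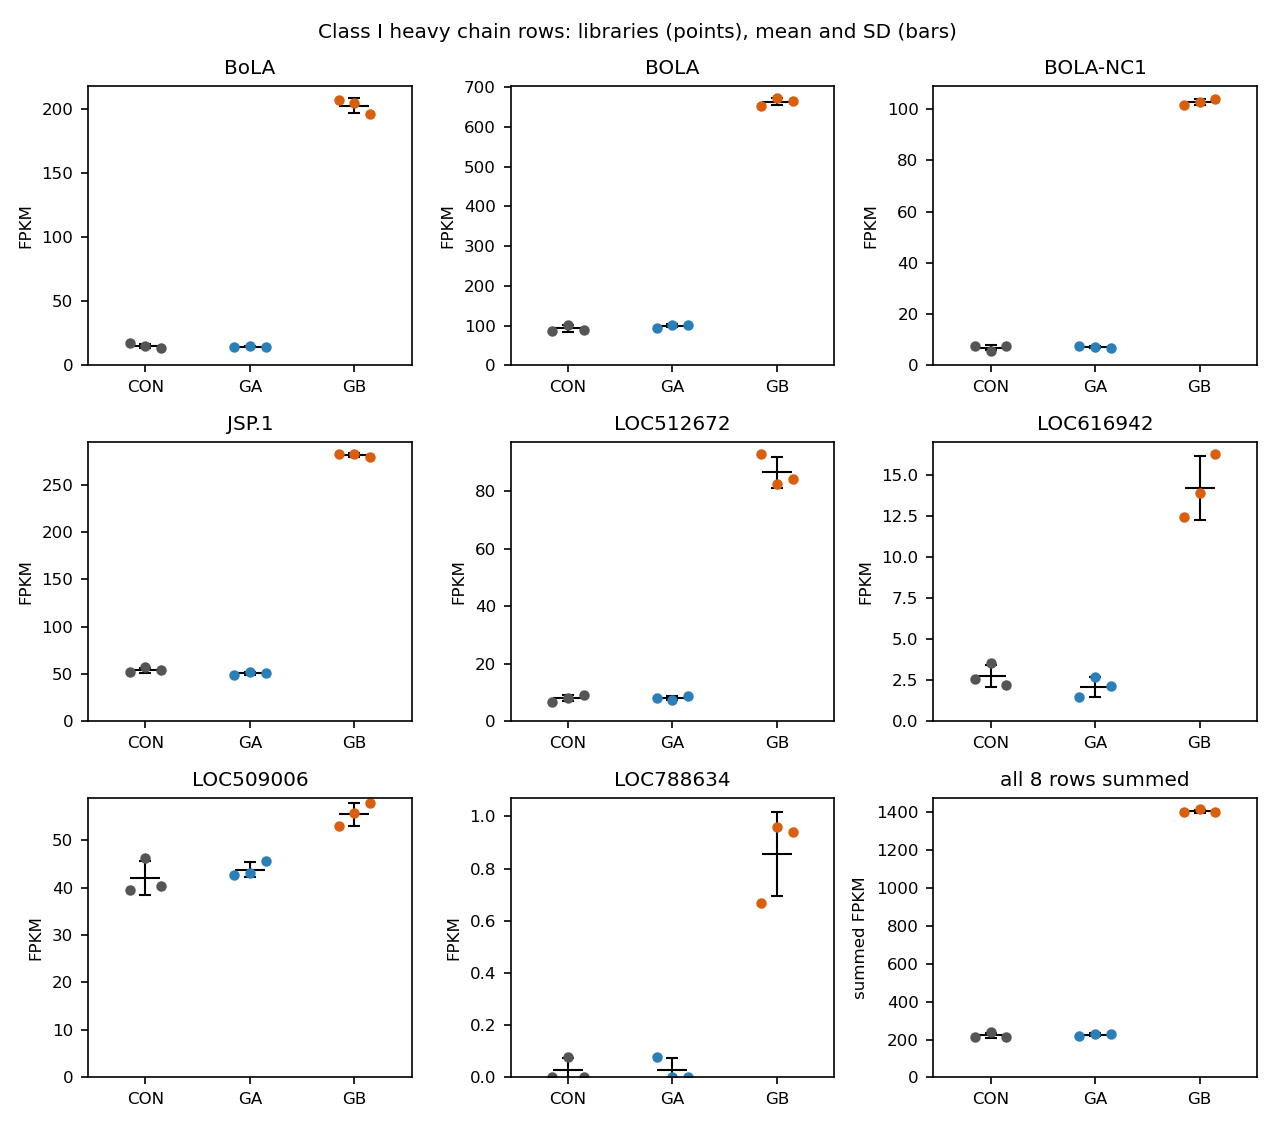
FPKM of the 8 class I heavy chain genes and of their sum (vertical axes from 0, a scale for each panel) in the CON, GA and GB libraries, with points for libraries and bars for the mean and SD over 3. BOLA and JSP.1 hold the largest levels, LOC509006 has the smallest fold change of mean FPKM in GB vs. CON (1.32), and the sum is 222 in CON, 226 in GA and 1407 in GB.

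TAP2 has a comparable uncertainty. LOC618733 is described as transporter 2, ATP-binding cassette, sub-family B, and TAP2 as antigen peptide transporter 2. LOC618733 read 26.1, 27.8 and 25.0 FPKM in CON, 27.1, 25.7 and 25.3 in GA, and 111, 107 and 118 in GB. It had a log2FC of 2.07 (SE 0.059) in GB vs. CON, close to the 1.94 of TAP2. The sum of TAP2 and LOC618733 was 46.6 ± 1.74 in CON, 47.5 ± 0.677 in GA and 191 ± 5.32 in GB (SD, n = 3), 4.10-fold and 4.02-fold higher in GB. TAP1 set against this sum, a ratio computed after seeing the data, was 0.151 ± 0.0196 in CON, 0.139 ± 0.00667 in GA and 1.00 ± 0.00955 in GB, with single GB values of 0.993, 1.01 and 1.00. The direction of the shift was that of TAP1 to TAP2, and the GB level was near equality instead of 2.41.

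In the RefSeq annotation of the ARS-UCD2.0 assembly, which differs from the ARS-UCD1.2 build of the files and was used for names and neighbours only, all 10 symbols were found. TAP2, LOC618733, PSMB8, TAP1 and PSMB9 follow each other there, with BOLA-DOB next to TAP2. ERAP1 and ERAP2 are direct neighbours followed by LNPEP, a related aminopeptidase. In this cluster of class II region genes the log2FC in GB vs. CON was 1.94 for TAP2, 2.07 for LOC618733, 4.27 for PSMB8, 4.68 for TAP1 and 6.24 for PSMB9.

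Peptides for class I are cut by the proteasome, whose constitutive catalytic subunits PSMB5, PSMB6 and PSMB7 are replaced after interferon by PSMB8, PSMB9 and PSMB10, while PSME1 and PSME2 form an activating cap. Of 16 genes for peptide supply and cytosolic peptidases, 5 were higher and 0 lower in limma in each comparison with GB, and the median log2FC of the 16 in GB vs. CON was 0.21. Over all tested genes 2.94% rose and 1.07% fell in GB vs. CON, and 2.66% rose and 0.978% fell in GB vs. GA. The 0 lower cannot be set apart from these shares. The 5 higher genes were PSMB9, PSMB8, PSME2, PSMB10 and PSME1. PSMB9 went from 0.88, 1.07 and 2.13 FPKM in CON to 134, 137 and 133 in GB (log2FC 6.24, SE 0.23), a larger log2FC than any of the 10 class I assembly genes. PSMB8 went from 18.1 ± 1.74 to 358 ± 5.62, PSMB10 from 19.2 ± 1.80 to 97.7 ± 2.92, PSME1 from 135 ± 13.2 to 485 ± 23.0 and PSME2 from 65.0 ± 9.595 to 393 ± 7.45 (SD, n = 3). The constitutive subunits had log2FC of -0.10 (PSMB5), -0.0093 (PSMB6) and -0.20 (PSMB7).

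The general folding machinery of the endoplasmic reticulum, which class I shares with most secreted proteins, was taken as a list of 9 genes. In GB vs. CON 0 of them were DEGs by limma, which cannot be set apart from the 2.94% of all tested genes that rose and the 1.07% that fell. Their log2FC ran from -0.22 to 0.23 with a median of 0.065, and 3 of the 9 had an adjusted p under 0.05 in limma with Benjamini-Hochberg, against 33.5% of all tested genes, 2 of them higher and 1 lower. Calreticulin (CALR), the lectin chaperone of the loading complex, was at 1427 ± 33.5 FPKM in CON and 1493 ± 18.7 in GB (log2FC 0.065, SE 0.033). PDIA3, the disulfide isomerase paired with tapasin, had a log2FC of 0.13 (SE 0.048), HSPA5 0.038 and HSP90B1 -0.22.

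A short list of 4 other genes with a class I-like fold held 0 DEGs in GB vs. CON by limma, a number too small to set apart from the 2.94% and 1.07% of all tested genes that rose and fell. The large subunit of the neonatal Fc receptor, FCGRT, which pairs with B2M, had a log2FC of -0.17 (SE 0.049) in GB vs. CON, the iron regulator HFE 0.68 (SE 0.094), the lipid-presenting CD1D 0.25 (SE 0.10) and the protein C receptor PROCR, which does not pair with B2M, 0.76 (SE 0.098). HFE and PROCR passed an adjusted p of 0.05 upward and FCGRT downward in limma with Benjamini-Hochberg. In this comparison 33.5% of all tested genes passed that level in either direction, and the list is too short to set apart from that share.

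**Figure D5:**
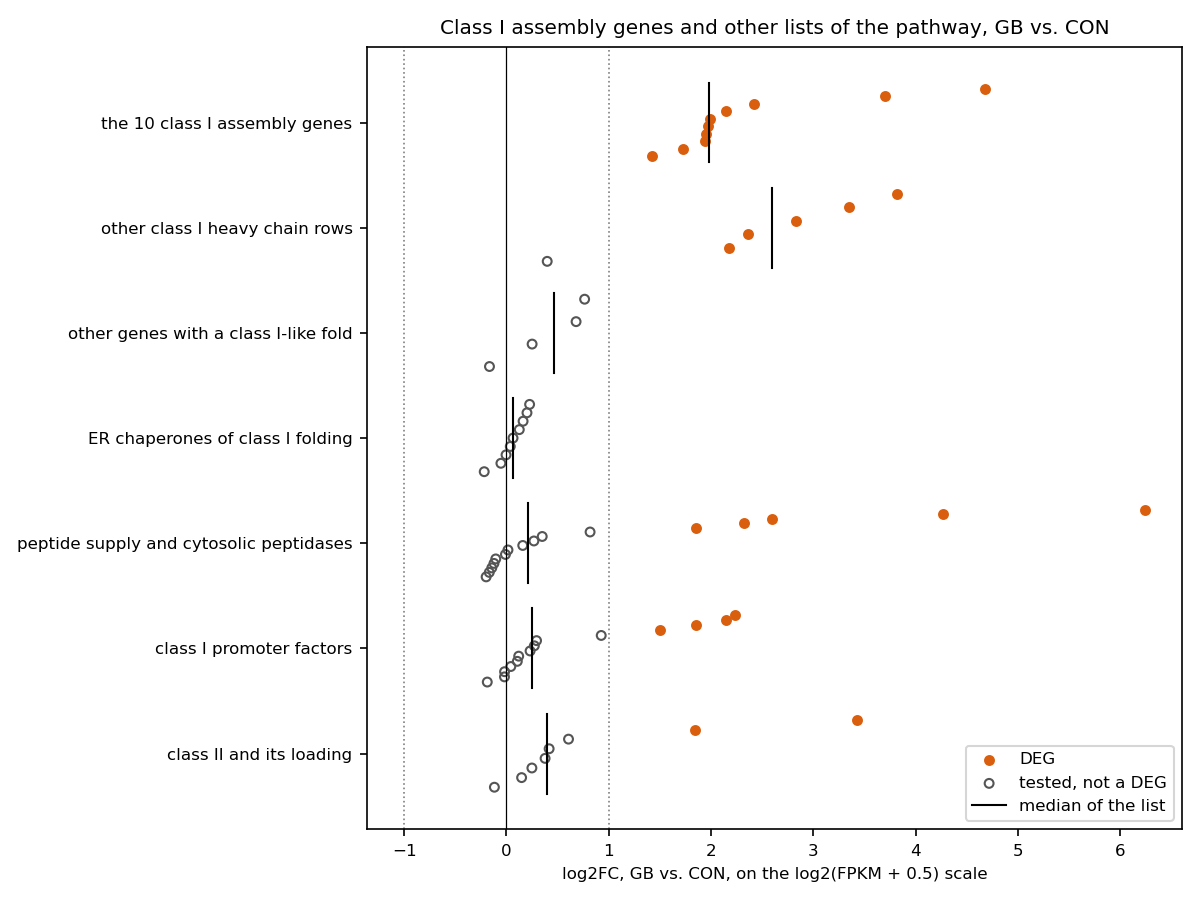
log2FC in GB vs. CON on the log2(FPKM + 0.5) scale (horizontal axis) of every tested gene in the 10 class I assembly genes and 6 other lists of the pathway, with filled points for DEGs, open points for other tested genes, black bars for medians and dotted lines at -1 and 1. The medians were 1.98 for the 10 genes, 0.25 for the promoter factors and 0.065 for the chaperones.

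Among 15 factors of the class I promoter, 14 were tested. By limma 4 of these were higher and 0 lower in GB vs. CON, against 2.94% and 1.07% of all tested genes. The median log2FC of the 14 was 0.25. The 4 were the interferon-response factors STAT2 (1.85), IRF9 (2.15), IRF1 (2.24) and IRF2 (1.51). RFX5, a subunit of the complex that NLRC5 joins on the promoter, read 12.1 ± 1.62 FPKM in CON, 11.2 ± 0.367 in GA and 23.4 ± 0.682 in GB. Its log2FC of 0.93 (SE 0.091) in GB vs. CON lay just under the DEG threshold and passed it without CON library 3 (1.02). In GB vs. GA the log2FC of RFX5 was 1.03, and 5 of the 14 were higher, against 2.66% of all tested genes. RELA (-0.19), NFYB (-0.019) and NFYC (-0.018) were not DEGs. CIITA, the counterpart of NLRC5 for class II, was at most 0.06 FPKM in any library and was not tested.

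Class II molecules use a separate loading route in endosomes. Of 11 such genes in the table, 8 were tested, and 2 of these were higher by limma in each comparison with GB. The share of all tested genes that rose in GB was 2.94% against CON and 2.66% against GA. The median log2FC of the 8 in GB vs. CON was 0.40. BOLA-DMB, a chain of the class II peptide editor, read 0.99, 0.49 and 0.64 FPKM in CON against 12.2, 16.6 and 9.18 in the GB libraries (log2FC 3.43, SE 0.27), and it was no longer called in GB vs. CON with the GC content of the reads and the replicate number in the fit (limma with Benjamini-Hochberg adjusted p = 0.115). CTSS, a protease of that route, had a log2FC of 1.84 (SE 0.057). The reductase IFI30, at 171 ± 11.3 FPKM in CON, had one of 0.42 and LGMN one of -0.12, and neither was a DEG. None of the lists held a DEG in GA vs. CON by limma, which cannot be set apart from the 0.0716% of all tested genes that were.

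The mean standardized profile of the 10 genes over the 9 libraries was also set against every other tested gene outside the lists. The 5 genes most like it by Pearson r were TDRD7 (0.9994), IFI44L (0.9993), IFIH1 (0.9993), LOC511531, described as guanylate-binding protein 1 (0.9991), and IFI44 (0.9990). Over all tested genes, with those of the lists and the 10 included, 193 had an r over 0.99. The 10 genes themselves ran from 0.987 (TAPBPL) to 0.999 (TAP2), with 9 over 0.99. Each of the 10 is part of the profile it was set against, which raises its r. The libraries share their groups, and such an r mainly reflects the gap between GB and the other 6 libraries. TDRD7 read 9.86 to 10.6 FPKM in CON and 59.2 to 60.0 in GB, whereas IFI44L was at 0 in all CON libraries and at 163 to 182 in GB, so that genes of very different fold shared this profile.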

How the data were processed

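The authors trimmed reads with fastp 0.21.0, removed rRNA reads with Bowtie2 (given as 2.33), aligned the rest with HISAT2 2.2.1 to ARS-UCD1.2 and quantified genes with RSEM 1.3.3, and their own test was DESeq2 1.34.0. The libraries were directional and made from poly-T selected mRNA, but the annotation release and strand use in counting were not given in the sources used here. FPKM were computed by the authors for each gene in each library and deposited to 2 decimals, and the read depth behind them is not known from the table. Groups were taken from the sample labels.

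The scale was log2(FPKM + 0.5), with no rescaling of libraries, genes with a mean under 0.5 FPKM were left out (4584 of 17162), and 12578 genes were fitted in 1 model over 9 libraries with limma 3.58.1 in R 4.3.3, with a variance trend. Adjusted p-values are Benjamini-Hochberg over all tested genes. Ratios used Python 3.11.15 with scipy 1.17.1, and figures matplotlib 3.10.9. The procedure was run on simulated data with independent noise between libraries and added shifts. That simulation does not cover reads shared between similar genes, GC differences or libraries from the same animal. Named are the 10 genes, all class I heavy chain genes, in the other lists every DEG and up to 4 genes with the highest mean FPKM, and the 5 genes most like the 10 in profile. The 10 genes and the lists were chosen with earlier results of these data known. Corrections by description came after seeing the table: LOC618733 was moved from the heavy chain list, and LOC509006 and LOC788634 were added to it. A further gene of the promoter factor list is not reported here, and that list is counted without it. CIITA and the MIC-type genes were named after their values were seen. Alternative settings tried were pseudocounts of 1 and 0.1, no filter, a filter at a mean FPKM of 1, TPM, median-of-ratios and quantile scaling, no variance trend, only the compared groups, the replicate number as a block, the GC content of the reads, as the study gives it for each library, as a covariate, alone or with the block, and each library left out.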

Additional observations from a re-analysis of the deposited data

How the results depend on the processing

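In both comparisons with GB all 10 genes were DEGs under each of 21 alternatives, and 0 were in GA vs. CON. The lowest log2FC in a comparison with GB was 1.295 (TAPBP, GB vs. CON, GC covariate), and the highest adjusted p by limma with Benjamini-Hochberg was 0.0301 (ERAP2, GB vs. CON, GC covariate with the replicate block). The median log2FC of the 10 for GB vs. CON was 2.18 with a pseudocount of 0.1 (GB vs. GA 2.03) and 2.15 with the GC covariate and the block. With the GC covariate and the block together the DEGs numbered 328 instead of 504 in GB vs. CON, but 459 instead of 458 in GB vs. GA. In GB vs. CON 1 class II gene was then called instead of 2. BOLA-DMB was lost (log2FC 2.64, limma with Benjamini-Hochberg adjusted p 0.115), as was LOC616942 (2.32, adjusted p 0.052). The cause was not tested.

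Little pairing by replicate number was seen in the values. Whether same-numbered libraries shared an animal is not stated in the sources used here, and low correlations cannot settle it. Deviations of same-numbered libraries correlated between -0.031 and 0.077, and the replicate block alone gave 503 DEGs for GB vs. CON, 458 for GB vs. GA and 5 for GA vs. CON, where the fit without it had 9 and both GC fits in limma 0, with 984 (GC alone) and 987 (with the block) genes at an unadjusted p under 0.05.

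In GA vs. CON, 15 of 210 values of single genes changed sign, all of them uncalled, so no direction can be given for these 6 genes. TAPBP was -0.021 with TPM, -0.048 with median-of-ratios factors, -0.035 with quantile scaling, -0.11 with the GC covariate and -0.036 with that and the block, where TAP1 was 0.017, NLRC5 0.021 and ERAP1 0.055. With 1 library left out, BoLA ran from -0.11 to 0.061 and MR1 from -0.012 to 0.14, both turned without CON library 1, as was the log2 ratio of BoLA to B2M (-0.26 to 0.042). TAPBP ran from -0.024 to 0.059, turned without CON library 2 or GA library 3. NLRC5 ran from -0.13 to 0.055, turned without CON library 2 or GA library 1, and ERAP1 from -0.12 to 0.035, turned without GA library 2. With the heavy chain list as first drawn up, 6 of its genes were called in GB vs. CON instead of 5. The 3 libraries a group and the use of FPKM without read counts limit the precision of low genes such as ERAP2, whose log2FC in GB vs. CON ran from 1.61 to 2.51 over the alternatives.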

Other observations

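MIC-type genes, class I relatives that serve as stress ligands and do not pair with B2M, stood outside the lists. MIC1 read 3.75, 3.44 and 4.13 FPKM in CON, 2.93, 2.52 and 3.67 in GA, and 13.6, 12.9 and 13.0 in GB, with a log2FC of 1.68 (SE 0.12) against CON and 1.96 against GA. LOC112443864, described as similar to MHC class I polypeptide-related sequence B, read 2.40, 1.67 and 2.08 in CON, 2.16, 2.41 and 2.82 in GA, and 5.82, 4.71 and 4.10 in GB. Its log2FC of 1.07 (SE 0.16) in GB vs. CON passed the threshold, that of 0.85 in GB vs. GA did not, and the first fell under 1 without CON library 2 (0.96) or GB library 1 (0.95), with a pseudocount of 1 (0.94) and with the GC covariate alone (0.85) or with the block (0.75).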
